A study of Homo sapiens with 6 samples.

Results

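The integrated stress response was followed through 10 genes in KO52 cells, a human acute myeloid leukemia line. The genes were DDIT3, ATF4, ATF5, TRIB3, ASNS, CHAC1, PPP1R15A, SESN2, PSAT1 and PHGDH, taken by name from 60612 gene IDs in the count tables. All 10 matched 1 ID each, and all 10 passed the filter on low counts. They were selected on the level of DDIT3 in these libraries, lower in dnFOS than in EV, and on membership of its pathway. The differences of the 10 genes are therefore given as a description, with no p-value. Where 1 of them is said to be called (defined below), this only describes where it stood in the fit over all genes.

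The cells were CEBPA double mutant in every group. They carried a lentiviral vector that doxycycline switches on, and per the study's methods they were treated with doxycycline and sorted for GFP before RNA was taken. In dnCEBP cells the vector made a peptide that blocks C/EBP proteins, and in dnFOS cells one that blocks AP-1 proteins, the family of FOS. In EV (empty vector) cells it made GFP alone. Each peptide pairs with members of its transcription factor family and keeps them off DNA. Each group held 2 libraries of total RNA. The labels do not say that they came from separate cultures, so p-values measure only the spread between these libraries, and 1 cell line limits what the groups stand for.

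In the integrated stress response, kinases that sense unfolded protein, amino acid shortage, double-stranded RNA or heme shortage phosphorylate the translation factor eIF2. General translation then slows while ATF4 mRNA is translated more. ATF4 is a bZIP transcription factor that pairs with C/EBP and other bZIP proteins at composite sites and switches on genes for amino acid synthesis, amino acid import and tRNA charging. DDIT3, also called CHOP, is a C/EBP family member that pairs with other bZIP proteins, and PPP1R15A (GADD34) leads a phosphatase back to eIF2 and so ends the response.

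Total counts per library ran from 9862994 to 27663179, lowest in the 2 dnFOS libraries. A count of 3 was worth 0.108 to 0.304 CPM (counts per 1000000 counts of the library), and such limits cover counting error only. The signal recognition particle RNA RN7SL1 held 7.75% to 7.94% of counts in EV and dnCEBP, and 6.12% and 4.31% in dnFOS, and with it and the other features over 1% of counts left out, 5 in all, DDIT3 was at -1.531 in dnFOS and the median of the 10 genes at -0.733. The 9 markers of myeloid blasts checked, CD34, KIT and MPO among them, were all above 3 counts in some library. Of the T cell markers CD3D was abundant, at 938 to 3885 counts, TRAC had 5 to 100, and CD3E and CD8A had 0 to 4. The summed level of the 4 T cell markers was 115.8 to 121.0 CPM in EV, 143.5 to 144.1 in dnCEBP and 95.7 to 110.9 in dnFOS. That of the 4 epithelial or kidney line markers was 71.6 to 85.3, 75.3 to 76.5 and 70.9 to 75.1. Of these EPCAM had 389 to 751 counts, KRT18 287 to 1054 and KRT8 65 to 333, and CDH1 had 0. Among 15395 genes tested, 15.0% were called in dnFOS against EV, 1.07% in dnCEBP against EV and 14.7% in dnFOS against dnCEBP. Called means an adjusted p under 0.05 by edgeR's quasi-likelihood test with Benjamini-Hochberg adjustment over all genes.

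The stretches upstream of DDIT3 and PPP1R15A are shown because both dnFOS libraries lay far below the other 4 for these genes. A further reason was that the peptides block proteins that bind AP-1 and C/EBP sites. Sequences are those of RefSeq on GRCh38.p14, 5′ to 3′ on the gene's strand, and end at the base before an annotated start. Capitals mark 4 letter patterns searched on both strands: TGANTCA for AP-1, TGATGNAA for the composite C/EBP-ATF element that ATF4 uses, TGACGTCA for the cAMP response element (CRE), and TTGCNNAA for C/EBP.
DDIT3, chr12:57520515-57520764, minus strand: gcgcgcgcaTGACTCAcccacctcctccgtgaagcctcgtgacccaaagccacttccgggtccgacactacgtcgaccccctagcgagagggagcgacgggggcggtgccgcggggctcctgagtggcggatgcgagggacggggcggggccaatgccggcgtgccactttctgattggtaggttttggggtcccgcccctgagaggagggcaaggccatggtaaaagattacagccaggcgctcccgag
PPP1R15A, chr19:48872171-48872420, plus strand: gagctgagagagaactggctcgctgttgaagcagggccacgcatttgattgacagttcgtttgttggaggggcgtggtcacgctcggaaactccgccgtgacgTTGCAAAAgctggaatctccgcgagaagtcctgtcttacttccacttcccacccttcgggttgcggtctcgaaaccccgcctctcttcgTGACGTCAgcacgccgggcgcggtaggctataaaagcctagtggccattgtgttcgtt

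The DDIT3 stretch held an AP-1 pattern 241 bases before the start, and that of PPP1R15A a CRE 58 bases and a C/EBP pattern 147 bases before it. Shorter stretches, the pattern with 10 bases on each side, show the other AP-1 match and the composite elements.
ATF5, chr19:49928708-49928734, plus strand, AP-1: gagagtgctgTGACTCAtgctggactc
CHAC1, chr15:40953252-40953279, plus strand, C/EBP-ATF element on the other strand: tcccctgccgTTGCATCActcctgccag
ASNS, chr7:97872459-97872486, minus strand, C/EBP-ATF element: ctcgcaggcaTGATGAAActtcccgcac

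In windows of 250 bases before to 50 after each start, AP-1 was found for 2 of the 10 genes, against 9.4% of 27305 genes in the RefSeq table. The C/EBP-ATF element was found for 2 of 10 (4.5% of all genes), the CRE for 1 (2.2%) and the C/EBP pattern for 4 (12.7%), which were ATF5, PHGDH, PPP1R15A and SESN2. TRIB3, ATF4 and PSAT1 held none of the 4. The patterns were chosen after these upstream sequences were seen, so the shares are a description and cannot show enrichment. Genes also differed in their number of windows, with 3 each for ATF5 and TRIB3 and 35116 over the 27305 genes. More windows give more room for a match. A match is a run of letters and not a measured site.

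Most of the 10 genes had lower levels in dnFOS than in EV, the comparison in which DDIT3 was selected, so the counts describe the genes and support nothing further. Against EV the fitted log2 fold change was below 0 for 10 of 10 in dnFOS, with a median of -0.73, where the median over all genes tested was 0.00. In dnCEBP 9 of 10 were below 0, with a median of -0.20 against -0.00 over all genes. At the threshold above, 8 were called lower in dnFOS (all but ATF5 and ASNS) and 2 in dnCEBP (TRIB3 and PHGDH), and none higher in either. Apart from DDIT3 the count in dnFOS was 7 of 9. Called genes of the same direction made up 7.76% of all genes in dnFOS (7.24% higher) and 0.448% in dnCEBP (0.624% higher). The median level was 36.2 CPM for the 10 genes and 12.5 for all tested genes, and a higher level makes a call easier. Without EV replicate 1 the count in dnFOS was 5, and that in dnCEBP was 1 without EV replicate 1, EV replicate 2 or dnCEBP replicate 2. Both dnFOS libraries lay below both EV libraries for 9 of the 10 genes, a separation that 56.7% of all genes showed in one direction or the other. The dnCEBP libraries lay below both EV libraries for 5 of 10, against 42.8% of all genes separated in either direction.

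**Figure D1:**
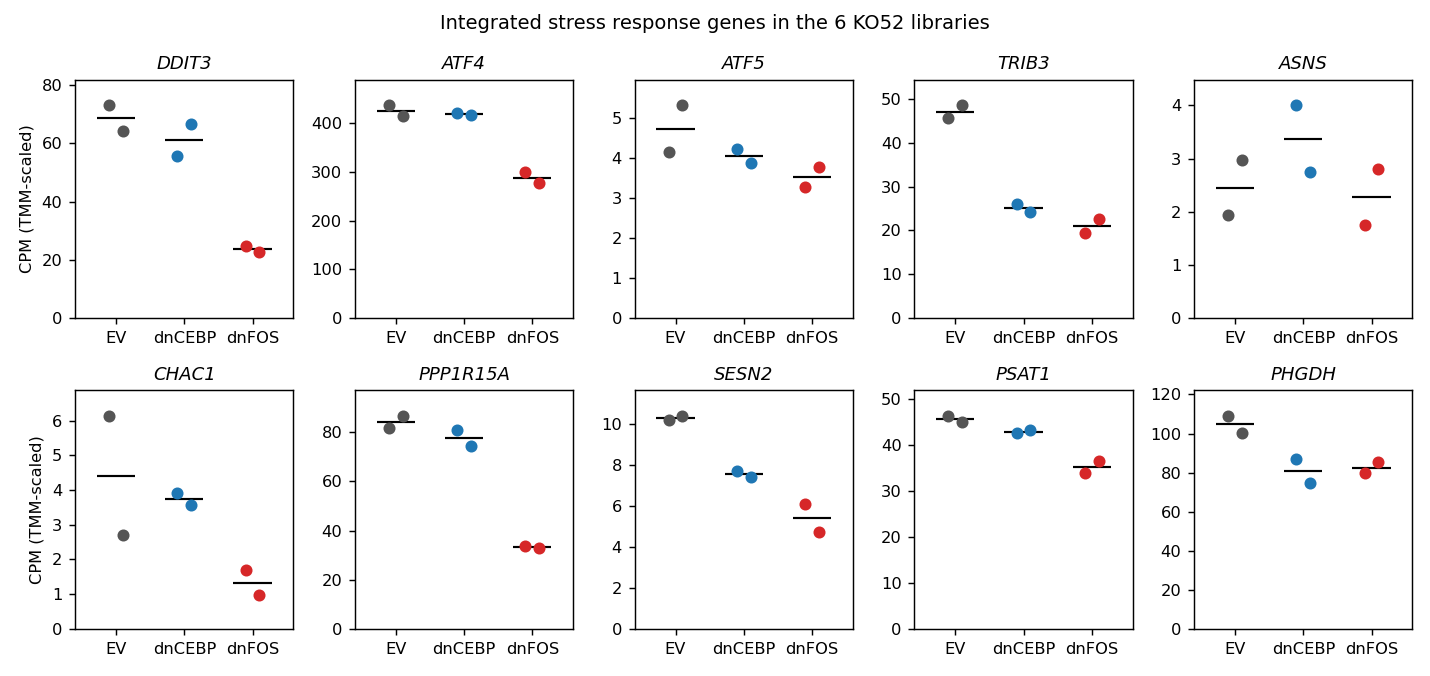
Level of each gene in CPM, scaled with TMM factors, in the 6 libraries. Points are libraries, 2 per group, the horizontal line is their mean, and each axis starts at 0. The dnFOS points of DDIT3 (24.6 and 22.7) and PPP1R15A (33.8 and 33.0) sit apart from the other 4 libraries, while those of ASNS lie among them.

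Among the transcription factors, DDIT3 (ENSG00000175197; GRCh38 chromosome 12, 57516588 to 57521737) was at 73.0 and 64.3 CPM with EV, 55.7 and 66.6 under dnCEBP and 24.6 and 22.7 under dnFOS. The counts behind these levels were 1739 and 1404, 1504 and 1380, and 378 and 235. Both dnFOS libraries were far below the other 4, which overlapped. The log2 fold change was -1.532 ± 0.115 (SE) in dnFOS against EV, a level 0.346 times that of EV, and -0.17 ± 0.10 in dnCEBP. Between the peptides it was -1.363 ± 0.115. With single libraries left out the dnFOS value ran from -1.63 to -1.44 and that of dnCEBP from -0.30 to -0.043. In bulk RNA, fewer cells with a transcript and less of it per cell cannot be told apart.

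DDIT3 shares 355 of its 1307 exon bases (27.2%) with MARS, a methionyl-tRNA synthetase gene on the opposite strand. It shares 4.4% with MBD6, also on the opposite strand. On the same strand it shares 8.0% with AC022506.1, which had 0 counts in every library. Whether the counting used strand is not given in the sources used here. Reads in these overlaps may therefore have been dropped or assigned to another gene. In dnFOS MARS fell by 0.535 ± 0.089 log2 units (SE; edgeR adjusted p = 0.000127), from 91.0 and 92.1 CPM to 65.7 and 60.4, less than the difference of DDIT3.

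ATF4 (ENSG00000128272; chromosome 22, 39519695 to 39522685), the main transcription factor of the response, was at 435.9 and 413.3 CPM in EV, 419.4 and 415.5 under dnCEBP, and 299.0 and 276.7 under dnFOS. The dnFOS libraries were below the other 4, and EV and dnCEBP overlapped. Its log2 fold change was -0.56 ± 0.08 (SE) in dnFOS and -0.02 ± 0.08 in dnCEBP, where it was 0.041 with a GC and length trend removed. The 4 processed pseudogenes named for ATF4 had at most 8 counts in any library. These are levels of mRNA. The step at which ATF4 is mainly controlled, its translation, was not measured.

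ATF5 (ENSG00000169136; chromosome 19, 49928702 to 49933935), a relative of ATF4 with a similar translational control, had 39 to 116 counts per library. It was at 4.15 and 5.31 CPM in EV, 4.22 and 3.86 under dnCEBP and 3.26 and 3.77 under dnFOS. The dnFOS libraries were the lowest, by a small margin. The log2 fold change was -0.44 ± 0.26 (SE) in dnFOS and -0.22 ± 0.24 in dnCEBP, and neither passed the threshold. With a GC and length trend removed these values were -0.23 and -0.109. NUP62, on the opposite strand, shares 21.2% of its exon bases, so its counts are uncertain in the same way. IL4I1 on the opposite strand and MIR4751 on the same strand share 2.5% each of the exon bases of ATF5.

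Of the feedback genes, PPP1R15A (ENSG00000087074; chromosome 19, 48872392 to 48876057) was at 81.8 and 86.6 CPM in EV, 80.7 and 74.3 under dnCEBP, and 33.8 and 33.0 under dnFOS. Its dnFOS libraries differed by less than 1 CPM and lay far below the other 4. Its log2 fold change was -1.33 ± 0.10 (SE) in dnFOS, -0.12 ± 0.09 in dnCEBP and -1.215 ± 0.097 between the peptides.

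TRIB3 (ENSG00000101255; chromosome 20, 362835 to 397559), a pseudokinase that is induced by ATF4 and DDIT3 and restrains them, was called under both peptides. It was at 45.6 and 48.5 CPM in EV, 26.1 and 24.1 under dnCEBP and 19.5 and 22.6 under dnFOS. All 4 peptide libraries were below both EV libraries, and the dnFOS libraries were the lowest. On the log2 scale the change was -1.17 ± 0.12 (SE) in dnFOS and -0.90 ± 0.12 in dnCEBP. The difference between the peptides, -0.265 ± 0.125, did not pass the threshold, and with single libraries left out it ran from -0.37 to -0.15.

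CHAC1 (ENSG00000128965; chromosome 15, 40952962 to 40956519), which breaks down glutathione, rested on few reads. Its counts were 146 and 59 in EV, 106 and 74 under dnCEBP and 26 and 10 under dnFOS, or 6.13 and 2.7, 3.92 and 3.57, and 1.69 and 0.967 CPM. The EV libraries stood further apart than any other pair, and both dnFOS libraries were below the rest. Its log2 fold change in dnFOS was -1.68 ± 0.37 (SE), and -0.97, no longer called, without EV replicate 1. In dnCEBP it was -0.24 ± 0.30, and ran from -0.71 to 0.47 with single libraries left out.

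SESN2 (ENSG00000130766; chromosome 1, 28259527 to 28282491), a leucine sensor that restrains mTORC1, was at 10.2 and 10.4 CPM in EV, 7.73 and 7.43 under dnCEBP and 6.12 and 4.74 under dnFOS. The 3 groups did not overlap, with EV highest and dnFOS lowest. Its log2 fold change was -0.91 ± 0.20 (SE) in dnFOS and -0.44 ± 0.18 in dnCEBP, which did not pass. The dnFOS call was lost without dnFOS replicate 2, at -0.75.

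Of the 10 genes, the 3 enzymes of amino acid synthesis had the smallest fitted differences between dnFOS and EV, which was not so in dnCEBP. This order is uncertain, since ATF5 (-0.44 ± 0.26, SE) lay within its SE of PSAT1 and PHGDH. With a GC and length trend removed, ATF5 (-0.23) and ATF4 (-0.391) had smaller differences than PSAT1 (-0.448), and the order did not hold. PSAT1 (ENSG00000135069; chromosome 9, 78297143 to 78330093), of the serine pathway, was at 46.4 and 45.1 CPM in EV, 42.6 and 43.4 under dnCEBP and 34.0 and 36.5 under dnFOS. The groups were separate, and the dnFOS libraries the lowest. On the log2 scale it differed by -0.38 ± 0.11 (SE) in dnFOS and -0.09 ± 0.10 in dnCEBP. The dnFOS call was lost without EV replicate 1 (-0.36), EV replicate 2 (-0.41) or dnFOS replicate 1 (-0.32), and under library totals (-0.28).

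PHGDH (ENSG00000092621; chromosome 1, 119648411 to 119744226), the first enzyme of serine synthesis, was at 109.0 and 100.3 CPM in EV, 87.1 and 74.6 under dnCEBP and 79.8 and 85.2 under dnFOS. All 4 peptide libraries were below both EV libraries and overlapped each other. Its fitted log2 change was -0.345 ± 0.092 (SE) in dnFOS, -0.37 ± 0.09 in dnCEBP and 0.03 ± 0.09 between the peptides. Its calls were lost in dnFOS without EV replicate 1 (-0.28) or dnFOS replicate 1 (-0.30) and under library totals (-0.25). In dnCEBP they were lost in DESeq2 (-0.37) and without EV replicate 1 (-0.31), EV replicate 2 (-0.435) or dnCEBP replicate 2 (-0.26).

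ASNS (ENSG00000070669; chromosome 7, 97852118 to 97872542), which makes asparagine and is a classical ATF4 target, was the lowest of the 10 per kilobase. Its counts were 46 and 65 in EV, 108 and 57 under dnCEBP and 27 and 29 under dnFOS, and its levels overlapped between all groups, from 1.76 to 4.0 CPM. The log2 fold change was -0.14 ± 0.35 (SE) in dnFOS and 0.475 ± 0.306 in dnCEBP, and the former ran from -0.47 to 0.20 with single libraries left out. A transcript annotated as AC079781.5 shares 44.6% of its exon bases on the same strand, and reads there may have been left out. The level of ASNS is therefore uncertain.

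**Figure D2:**
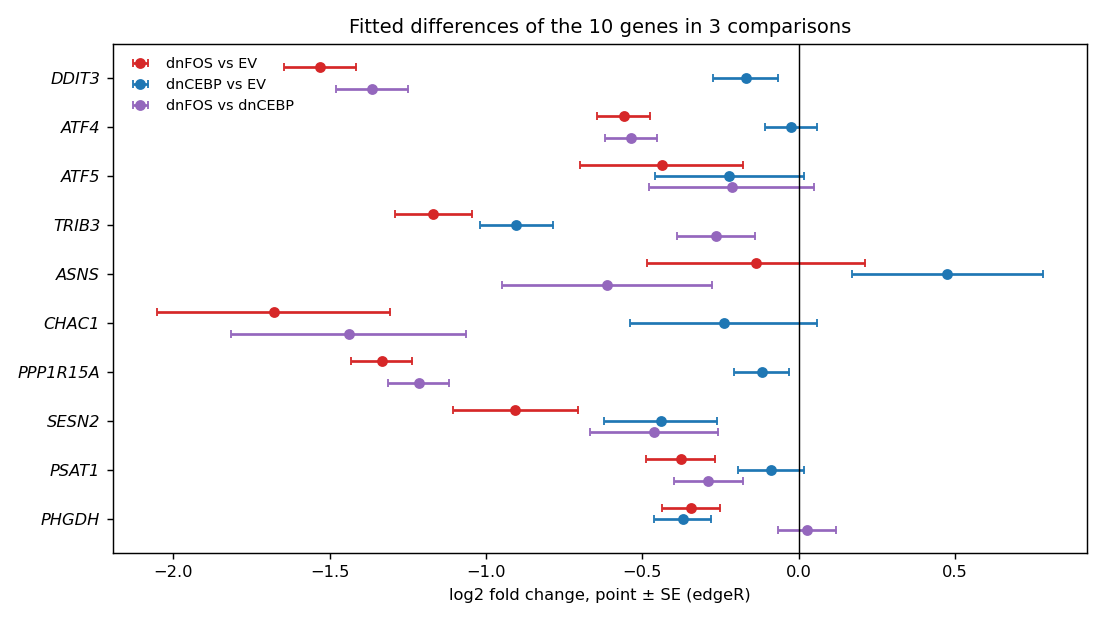
Fitted log2 fold change of each gene with its standard error, from edgeR over all 6 libraries. Red is dnFOS against EV, blue dnCEBP against EV and purple dnFOS against dnCEBP. DDIT3, CHAC1 and PPP1R15A have red and purple points below -1 with blue points at -0.24 or above, while for PHGDH red (-0.345) and blue (-0.37) lie together and purple is at 0.03.

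The direct comparison of dnFOS with dnCEBP asked where the peptides differ. It called 4 of the 10 genes, all lower in dnFOS, where 7.84% of all genes were called lower and 6.83% higher. These were DDIT3, ATF4, CHAC1 and PPP1R15A. DDIT3 was selected on its low level in these same dnFOS libraries, and the other genes with earlier results of these data known. The calls here therefore describe the genes and support nothing further. The median log2 fold change of the 10 was -0.50, against 0.02 over all genes. CHAC1 lost this call without dnCEBP replicate 1 (-1.37) or dnFOS replicate 2 (-1.15), and in limma-voom (-1.45). Both dnFOS libraries lay below both dnCEBP libraries for 8 of the 10, against 54.5% of all genes separated in either direction. The comparisons of each peptide with EV share the EV libraries, so their values are set side by side and not correlated.

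Per kilobase of exon, the order of the mean levels in EV was ATF4 (168.9 CPM per kilobase), DDIT3 (52.5), PPP1R15A (27.2), PSAT1 (20.9), TRIB3 (13.7), PHGDH (11.4), SESN2 (2.99), CHAC1 (2.14), ATF5 (1.6) and ASNS (0.551). The 6 most abundant did not overlap their neighbours between libraries. SESN2 (2.95 to 3.02) overlapped CHAC1 (1.31 to 2.98), which overlapped ATF5 (1.41 to 1.8). In dnFOS the level of PSAT1 (16.1 CPM per kilobase) stood above that of PPP1R15A (10.8) and close to that of DDIT3 (18.1). The lengths cover all annotated exons, so a gene with many rarely used exons, such as PHGDH at 9217 bases, may be placed too low.

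The genes whose pattern over the 6 libraries was most like that of DDIT3 were GLUL, ADM, PLIN2, CCNA1 and GBP2. Pearson's r of log2 CPM was 0.996, 0.994, 0.993, 0.993 and 0.991, over 173 genes with a mean of at least 5 CPM and an SD of log2 CPM of at least 0.5. Of these 173, 33 had an r of at least 0.95. GLUL, glutamine synthetase, was at 1420.6 and 1359.6 CPM in EV, 1294.6 and 1367.5 under dnCEBP, and 692.7 and 669.9 under dnFOS. ADM, which encodes adrenomedullin, was at 49.0 and 44.8, 42.5 and 43.0, and 15.2 and 14.5 CPM. Among the 10 genes themselves, r with DDIT3 was 0.988 for ATF4, 0.979 for PPP1R15A, 0.964 for PSAT1, 0.905 for CHAC1 and 0.887 for SESN2. It was 0.711 for TRIB3, 0.655 for ATF5, 0.438 for PHGDH and 0.254 for ASNS. These are descriptions over 6 libraries in 3 groups, and the points share the step between dnFOS and the rest.

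The rest of the pathway was examined through 7 lists of known components and targets, which held 99 further genes, 93 of them tested. The lists were chosen with earlier results of these data known, so their shares of called genes are a description. In dnFOS 34 of the 93 fell and 2 rose, or 38.7% against 15.0% of all genes. In dnCEBP 4 fell and none rose, or 4.3% against 1.07% of all genes. The median log2 fold change was -0.23 in dnFOS and -0.06 in dnCEBP. The 93 genes were expressed at a median of 65.6 CPM and all tested genes at 12.5, and a call is easier to make at a higher level. Without EV replicate 1 the dnFOS count was 22. The dnCEBP count was 1, 2 and 0 without EV replicate 1, EV replicate 2 and dnCEBP replicate 2, and 7 without either dnFOS replicate.

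**Figure D3:**
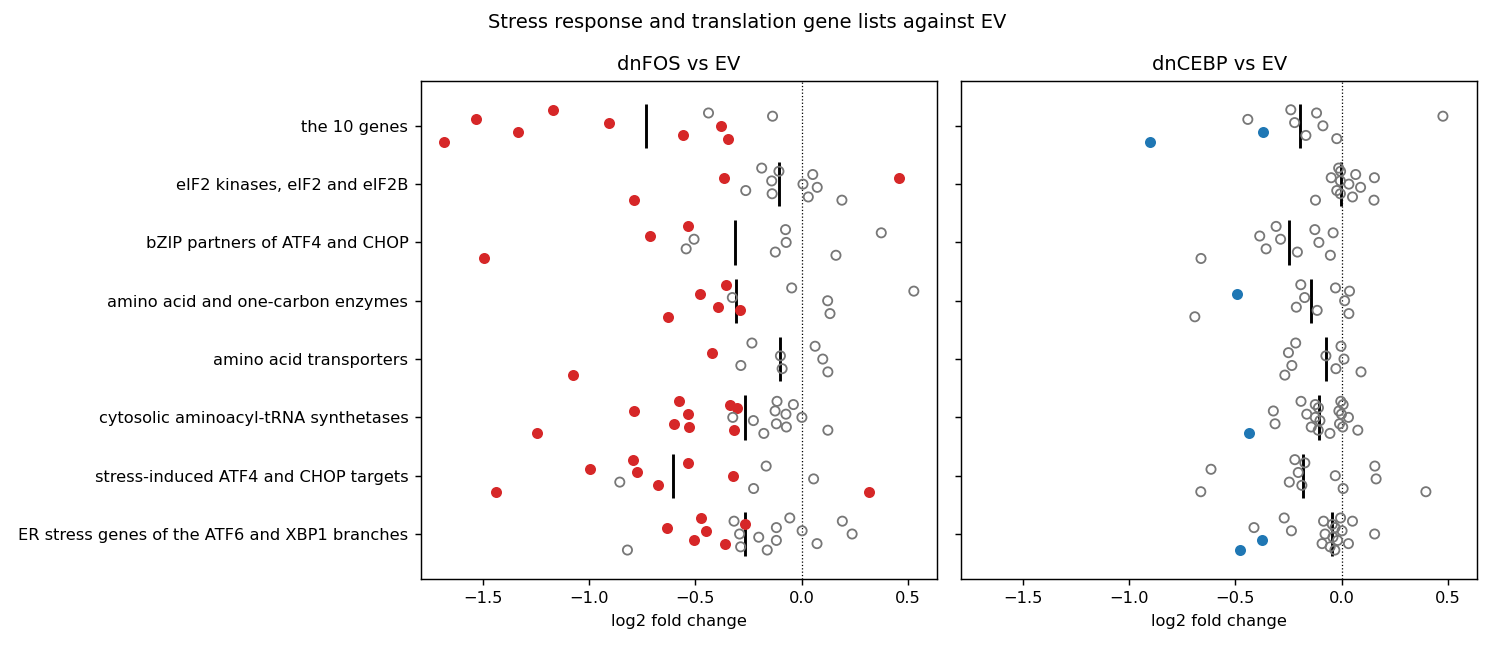
Log2 fold change of each tested gene in dnFOS (left) and dnCEBP (right) against EV, by list. Filled points passed an adjusted p under 0.05 and open points did not, black bars are medians, and vertical scatter only separates points. In dnFOS the medians of the stress-induced targets (-0.61) and of the 10 genes (-0.73) lie lowest, and in dnCEBP those lists lie at -0.18 and -0.20.

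The stress-induced targets of ATF4 and DDIT3 had the lowest median of the 7 lists in dnFOS. There 7 of 12 tested fell and 1 rose, or 66.7% called against 15.0% of all genes, with a median of -0.61. In dnCEBP none of 12 was called, against 1.07% of all genes, with a median of -0.18. DDIT4 (REDD1), an mTORC1 inhibitor, was at 96.1 and 103.0 CPM in EV, 83.8 and 84.0 under dnCEBP and 48.6 and 51.5 under dnFOS. In dnFOS it fell by 0.99 ± 0.09 log2 units (SE; edgeR adjusted p = 5.3e-09). VEGFA, the angiogenic growth factor, fell by 0.535 ± 0.093 log2 units (edgeR adjusted p = 0.000197). TNFRSF10B, the death receptor DR5 and a DDIT3 target, fell by 0.795 ± 0.178 (0.00268). In dnCEBP TNFRSF10B had a log2 fold change of -0.615 ± 0.165 (0.0666), which passed in limma-voom, with the 2 groups fitted alone, with a GC and length trend removed, with the replicate block, and without either dnFOS replicate. In dnFOS GADD45A fell by 0.68 ± 0.16 (0.00366), or by 0.42, no longer called, without dnFOS replicate 1.

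BBC3, which encodes the cell death protein PUMA and was named after its values were seen, had 9 to 63 counts per library. It fell by 1.439 ± 0.425 log2 units in dnFOS (SE; edgeR adjusted p = 0.0201), a call lost without EV replicate 1 (-1.27) or dnFOS replicate 1 (-0.965) and with a GC and length trend removed (-1.104). KLHL24, also named after its values were seen, was the member that rose, by 0.32 ± 0.10 (0.0304). That call was lost in DESeq2 (0.31), with a GC and length trend removed (0.051), and without EV replicate 1 (0.32), EV replicate 2 (0.30) or dnFOS replicate 2 (0.215). The other 4 genes of the list were under the filter. FGF21 had 0 counts in every library, which allows up to 0.108 to 0.304 CPM, and NUPR1, GDF15 and STC2 had 0 to 5.

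Genes that charge tRNA, a known arm of the ATF4 program, fell in part. Of the 20 cytosolic aminoacyl-tRNA synthetase genes, 9 fell in dnFOS and none rose, or 45.0% called against 15.0% of all genes. In dnCEBP 1 fell, or 5.0% against 1.07% of all genes. The median log2 fold change was -0.265 in dnFOS and -0.11 in dnCEBP. WARS, for tryptophan, was at 98.0 and 98.3 CPM in EV, 81.3 and 76.6 under dnCEBP, and 43.9 and 38.8 under dnFOS. In dnFOS it fell by 1.243 ± 0.095 log2 units (SE; edgeR adjusted p = 1.33e-10), and its value in dnCEBP was -0.31 ± 0.09 (0.0836). AARS, for alanine, fell by 0.79 ± 0.09 in dnFOS (3.21e-07) and fell by 0.44 ± 0.09 in dnCEBP (0.00678). Its dnCEBP call was lost without EV replicate 1 (-0.39) or dnCEBP replicate 2 (-0.36). In dnFOS TARS fell by 0.602 ± 0.085 (1.53e-05) and SARS fell by 0.579 ± 0.085 (2.67e-05). At the other end LARS had a log2 fold change of 0.00 ± 0.08 and FARSB of 0.123 ± 0.105 in dnFOS.

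**Figure D4:**
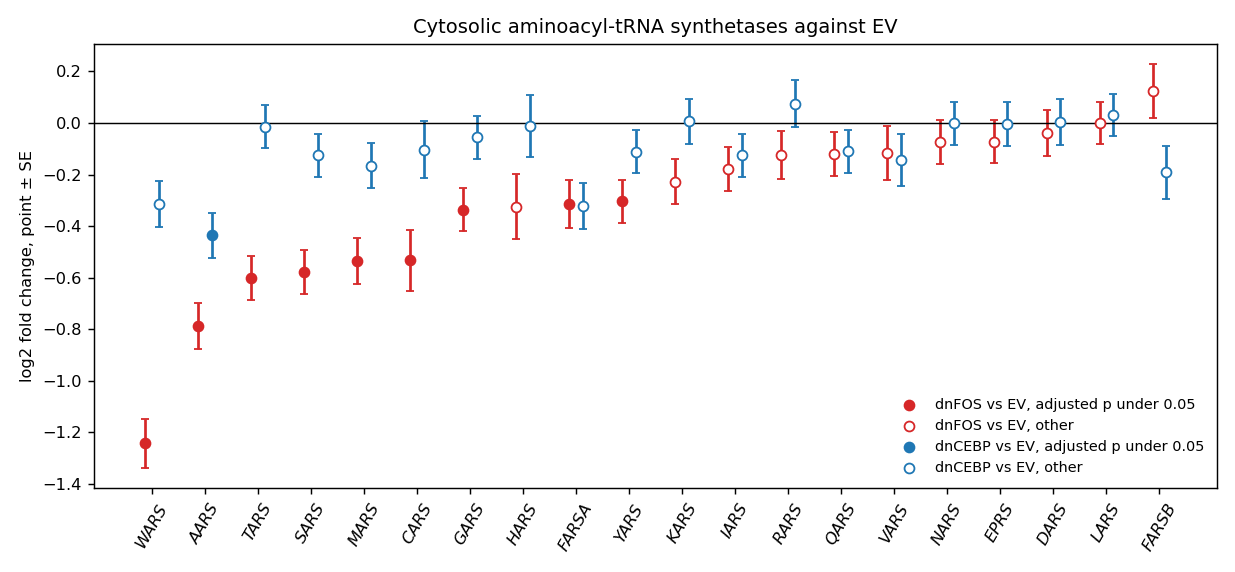
Log2 fold change against EV with its standard error for 20 cytosolic aminoacyl-tRNA synthetase genes, ordered by the dnFOS value. Red is dnFOS and blue dnCEBP, and filled points passed an adjusted p under 0.05. WARS (-1.24) and AARS (-0.79) lead in dnFOS, and in dnCEBP AARS is the one filled point.

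Among the further enzymes of amino acid and one-carbon metabolism, 5 of 10 tested fell in dnFOS and none rose, with a median of -0.31. PYCR1, of proline synthesis, fell by 0.63 ± 0.13 log2 units (SE; edgeR adjusted p = 0.00143). With a GC and length trend removed it fell by 0.388 (0.012). The mitochondrial folate enzymes SHMT2 and MTHFD2 fell by 0.48 ± 0.08 (0.000222) and 0.39 ± 0.08 (0.00176). MTHFD1L fell by 0.36 ± 0.11 (0.0251) and lost its call without any 1 of the 4 libraries compared, at -0.42 to -0.31, and under library totals, at -0.26. In dnCEBP 1 of 10 fell, or 10.0% called against 1.07% of all genes. This was GPT2, an alanine aminotransferase, which went from 73.1 and 69.1 CPM to 52.8 and 48.2. Its fall of 0.49 ± 0.09 (0.00446) was no longer called without EV replicate 1 (-0.45) or dnCEBP replicate 2 (-0.43). In dnFOS it fell by 0.288 ± 0.095 (0.0388). CBS was under the filter at 0 to 2 counts.

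Of 9 amino acid transporter genes tested, 2 fell in dnFOS and none rose, or 22.2% called against 15.0% of all genes. SLC3A2, the heavy chain CD98 shared by several transporters, was at 174.9 and 159.0 CPM in EV, 140.2 and 137.1 under dnCEBP, and 85.9 and 71.9 under dnFOS. In dnFOS it fell by 1.08 ± 0.09 log2 units (SE; edgeR adjusted p = 1.46e-09), and its dnCEBP value was -0.27 ± 0.09 (0.175). In dnFOS SLC1A5, a glutamine carrier, fell by 0.42 ± 0.09 (0.00145), or by 0.20, no longer called, with a GC and length trend removed. The partners of SLC3A2 in the list did not pass: SLC7A5 had a log2 fold change of -0.23 ± 0.10 (0.122) and SLC7A11 of -0.29 ± 0.11 (0.0793). SLC6A9 was under the filter at 1 to 9 counts.

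Of the 13 genes of the eIF2 kinases and the eIF2 machinery, 2 fell and 1 rose in dnFOS, with a median of -0.11. That was 23.1% called against 15.0% of all genes. In dnCEBP none was called, against 1.07% of all genes. In dnFOS EIF2AK2 (PKR), the kinase that senses double-stranded RNA, rose by 0.46 ± 0.09 log2 units (SE; edgeR adjusted p = 0.00114), from 56.9 and 55.9 to 72.9 and 82.1 CPM. With a GC and length trend removed it rose by 0.243 (0.0273). Its dnCEBP value was 0.15 ± 0.09 (0.551). The kinase genes for heme shortage (EIF2AK1), unfolded protein (EIF2AK3) and amino acid shortage (EIF2AK4) had log2 fold changes of -0.11 ± 0.09, 0.07 ± 0.12 and 0.19 ± 0.09 in dnFOS, none of them called. EIF2B2, a subunit of the eIF2 exchange factor, fell by 0.79 ± 0.13 (8.66e-05). EIF2S2, the beta subunit of eIF2, fell by 0.37 ± 0.09 (0.00374), or 0.32, no longer called, without EV replicate 1.

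Among 10 bZIP genes that pair with ATF4 or DDIT3 or act beside them, 3 fell in dnFOS and none rose, or 30.0% called against 15.0% of all genes. In dnCEBP none was called, against 1.07% of all genes, while all 10 values were below 0, with a median of -0.248 that was the lowest of the lists. JUNB fell by 0.71 ± 0.19 log2 units (SE; edgeR adjusted p = 0.0105), or by 0.525, no longer called, without dnFOS replicate 1, and by 0.43 with the GC and length trend removed, also not called. BATF fell by 0.53 ± 0.17 (0.0279), a call lost without EV replicate 1 (-0.51), EV replicate 2 (-0.57) or dnFOS replicate 2 (-0.39), with that trend removed (-0.30) and under library totals (-0.436). ATF3, itself an ATF4 target, fell by 1.49 ± 0.46 (0.0272), a call lost in DESeq2 (-1.486) and limma-voom (-1.529) and without EV replicate 1 (-1.234) or dnFOS replicate 1 (-1.002). The C/EBP partners CEBPB and CEBPG had log2 fold changes of -0.543 ± 0.201 (0.0666) and -0.124 ± 0.105 (0.481) in dnFOS. JDP2 had the smallest p in dnCEBP, at -0.66 ± 0.21 (adjusted p = 0.139).

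The other branches of the response to unfolded protein in the endoplasmic reticulum, led by ATF6 and XBP1, were followed through 19 genes. In dnFOS 6 of 19 genes fell and none rose, or 31.6% called against 15.0% of all genes, with a median of -0.27. In dnCEBP 2 fell, or 10.5% against 1.07% of all genes, with a median of -0.045. HSPA5 (BiP), the main chaperone of the compartment, fell by 0.63 ± 0.10 log2 units in dnFOS (SE; edgeR adjusted p = 4.83e-05) and fell by 0.48 ± 0.095 in dnCEBP (0.00678). The dnCEBP call was lost without EV replicate 2 (-0.41) or dnCEBP replicate 2 (-0.33). In dnFOS HSP90B1, another chaperone, fell by 0.51 ± 0.08 (0.000102). HYOU1 and HERPUD1 fell by 0.36 ± 0.09 (0.00858) and 0.45 ± 0.12 (0.00924), and the first lost its call without EV replicate 1 (-0.29) or under library totals (-0.261), and the second without EV replicate 2 (-0.34) or dnFOS replicate 2 (-0.41). CALR, a chaperone that binds calcium, fell by 0.27 ± 0.08 in dnFOS (0.0257) and fell by 0.375 ± 0.082 in dnCEBP (0.0153), where the call was lost without any 1 of the 4 libraries compared, at -0.41 to -0.34. XBP1 and ATF6 themselves had log2 fold changes of -0.12 ± 0.08 (0.38) and -0.202 ± 0.095 (0.156) in dnFOS.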

How the data were processed

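RNA-seq counts of 6 KO52 libraries were analysed, 2 each of EV, dnCEBP and dnFOS, grouped and numbered by their titles. The authors deposited unnormalized counts for each gene, made from rRNA-depleted total RNA, and the submitters' processing notes name Trimmomatic, HISAT2, featureCounts (Subread) and hg38. Strand use and how multimapping reads were handled are not given in the sources used here. Of 60612 gene IDs, 58394 were found in GENCODE release 29 (GRCh38), and coordinates are 1-based.

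The fits used edgeR 4.0.16 (R 4.3.3). After filterByExpr (minimum count 10) 15395 genes were tested. With TMM factors (0.956 to 1.054), robust quasi-likelihood fits took 1 mean for each group over the 6 libraries (3 residual degrees of freedom). Tests were two-sided, called at an adjusted p under 0.05 after Benjamini-Hochberg adjustment over all genes. Standard errors come from the fold change and its F statistic, CPM from scaled library sizes, and log2 CPM from a prior count of 2. The levels of cell type markers and the floors use total counts. On simulated counts of 15395 genes with 200 changed in dnFOS, edgeR called 157 of them and 13 unchanged genes in dnFOS against EV, with 70% found at 2-fold and 87% at 4-fold.

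The 10 genes, the 7 lists and the letter patterns were chosen with earlier results of these data known, the patterns after the upstream sequences were seen. From each list the text names up to 4 called genes of smallest adjusted p per comparison with EV, or the gene of smallest p where none was called, besides genes whose exons overlap the 10 and, by likeness to DDIT3, the 5 of highest r. Other genes named, such as the remaining kinases and partners, were chosen after their values were seen. Alternatives were a mean CPM of 1 or more as filter, no low-count filter, library totals, median-of-ratios factors, 5 features over 1% left out, DESeq2 1.42.0, limma-voom (limma 3.58.1), only the groups compared, the replicate number as a block, a trend on GC content and length removed, and each library left out.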

Additional observations from a re-analysis of the deposited data

How the results depend on the processing

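Among the results recomputed, which were the summaries, the 10 genes and the pathway genes named by rule, no called value changed sign. The dnFOS values of GPT2 and CALR were not recomputed. Across the fits without 1 library, genes called in dnFOS against EV numbered 972 to 2426 (2309 with all libraries), 972 without dnFOS replicate 2 and 1059 without EV replicate 1. The same fits gave 5 to 8 of the 10 genes, 22 to 36 other pathway genes and a median over the 10 of -0.837 to -0.644. In dnCEBP they gave 33 to 314 genes (165 with all), 1 to 2 of the 10, 0 to 7 other pathway genes and a median of -0.236 to -0.117. Between the peptides they gave 1182 to 2262 genes (2259 with all; 1182 without dnFOS replicate 2 and 1349 without dnCEBP replicate 1), 16 to 29 other pathway genes and a median of -0.516 to -0.369. Under library totals alone the median of the 10 was -0.635 in dnFOS and -0.379 between the peptides, where the medians over all genes were 0.102 and 0.145 (0.004 and 0.024 with TMM factors). With a GC and length trend removed these medians were -0.581 and -0.408, and dnCEBP called 285 genes and 8 other pathway genes. With only the groups compared, dnCEBP called 297 genes and 8 other pathway genes, and with no low-count filter 255 genes. DESeq2 called 1 of the 10 in dnCEBP. The labels do not tie equal replicate numbers together, and deviations of equally numbered libraries correlated by 0.017 to 0.088, so the numbers were not taken to pair the libraries. With the replicate number as a block, dnCEBP called 488 genes and 10 other pathway genes, and dnFOS 3172 and 46. The depth of the dnFOS libraries limits CHAC1, with 10 and 26 counts there. The causes of these shifts were not tested.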
